A study of Homo sapiens with 7 samples.

Results

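Mitochondrial ribosomal proteins are made from nuclear genes, translated in the cytosol and imported into mitochondria, where they assemble with mitochondrial ribosomal RNA into the small and large subunits of the mitoribosome. The mitoribosome translates the few proteins that mitochondrial DNA encodes, all of them core subunits of the respiratory chain and of ATP synthase. Some of its proteins have counterparts in the bacterial ribosome and others are specific to mitochondria. The members described here were all genes in the deposited table whose symbol, found from the Ensembl gene ID, starts with MRPL or MRPS followed by a number, pseudogenes left out. This rule gave 77 of 14294 genes (48 MRPL and 29 MRPS symbols), with 2170 of the 386982 listed isoforms. By symbol, 27 were counted in the small subunit and 50 in the large subunit. MRPS18A and MRPS30 were moved to the large subunit, where structures place them despite their symbols. Of the 77, 44 were on a fixed list of genes with a bacterial counterpart. The other 33, absent from that list, were counted as specific to mitochondria, which may not hold for each of them. Newer nomenclature no longer counts MRPS36 as a ribosomal protein, and it was kept, among the 27 of the small subunit, because the rule is by symbol.

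The RNA came from the established embryonic stem cell line HUES66, of human origin, and was read by PacBio long-read sequencing in which 1 read stands for 1 cDNA molecule. Cas13d, a nuclease that cuts RNA under the direction of a guide, was aimed at isoforms of RBFOX2, which encodes a splicing regulator. The 7 libraries are 1 control, which the labels call a WT control of hESC, and 6 whose labels carry the genotype RBFOX2 isoform KD with an id and a G number: G12 (id 178135), G11 (id 178136), G13 (id 178145), G14 (id 178146), G3 (id 178147) and G5 (id 178149). All 7 cultures, the control included, were labelled piggyBac, were given doxycycline (1 µg/ml) and sampled at 24 h as replicate 1. The labels do not say which isoform an id denotes, whether the control expressed Cas13d or a guide, or whether a line was 1 clone. With 1 library per group there is no replicate check on any difference and no test was possible. Intervals are 95% and cover counting error only, as the reads carry no molecular identifiers.

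The control had the fewest reads, 16801842, and G12 the most, 26678538, so that 1 read was worth 0.0375 to 0.0595 TPM. TPM here scales a read count to the library total, with no division by transcript length. RBFOX2 stood at 107 TPM in the control, 106 in G14, 96.8 in G5, 88.5 in G12, 82.9 in G11, 55.9 in G13 and 42.1 in G3. Of 10 pluripotency genes, 9 were in the table and all 9 exceeded 1 TPM in all 7 libraries, with a summed level of 1622 to 2077 TPM; SOX2 was not among the gene IDs. Within this sum, POU5F1 was at 915 TPM in the control and 377 (G14) to 588 (G3) elsewhere, and NANOG at 10.0 and 3.49 (G14) to 5.54 (G5), both highest in the control and lowest in G14. DPPA4 was at 745 TPM in the control and 766 (G12) to 1002 (G5) elsewhere, L1TD1 at 18.2 and 24.9 (G12) to 41.0 (G11), and DNMT3B ran from 68.0 in G3 to 13.4 in G13, with 44.3 in the control. Of 10 genes of early differentiated cells, 5 were in the table, and GATA4, TBXT, EOMES and HAND1 stayed at or under 0.144 TPM. The fifth, COL1A1, was at 16.4 TPM in the control, 30.3 in G3 and 1.58 in G13, so the summed level of this list was 1.62 to 30.4 TPM. The part of culture state in the results below was not tested.

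Promoter sequences are shown for genes at both ends of the response, since the transcription factors NRF1 (nuclear respiratory factor), the ETS family and YY1 are known for sites in promoters of nuclear-encoded mitochondrial genes. Each sequence, from RefSeq (GRCh38.p14), runs 5′ to 3′ on the gene's strand from 100 bases before the transcription start through the first 30 transcribed bases. Capitals mark the letters of an ETS core (CCGGAAG, or CTTCCGG on the other strand) or of a YY1 core (AAGATGG).
MRPS6 (chr21:34073478-34073607, plus strand): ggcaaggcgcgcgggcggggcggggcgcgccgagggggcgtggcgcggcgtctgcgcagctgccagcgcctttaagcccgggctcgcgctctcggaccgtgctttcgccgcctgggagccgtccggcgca
MRPS34 (chr16:1773105-1773234, minus strand): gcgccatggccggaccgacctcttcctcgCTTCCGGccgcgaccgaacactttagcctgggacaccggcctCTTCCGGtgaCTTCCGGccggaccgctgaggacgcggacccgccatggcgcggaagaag
MRPS18A (chr6:43687762-43687891, minus strand): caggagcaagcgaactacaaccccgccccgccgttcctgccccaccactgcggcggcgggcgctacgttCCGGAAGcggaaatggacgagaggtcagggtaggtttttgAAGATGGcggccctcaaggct
MRPS26 (chr20:3045952-3046081, plus strand): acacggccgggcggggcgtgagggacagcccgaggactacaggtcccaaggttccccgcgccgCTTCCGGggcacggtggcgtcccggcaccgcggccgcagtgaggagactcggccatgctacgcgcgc
MRPS30 (chr5:44808847-44808976, plus strand): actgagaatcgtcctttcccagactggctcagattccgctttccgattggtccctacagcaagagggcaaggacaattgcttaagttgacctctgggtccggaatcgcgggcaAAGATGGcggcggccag
MRPL49 (chr11:65122221-65122350, plus strand): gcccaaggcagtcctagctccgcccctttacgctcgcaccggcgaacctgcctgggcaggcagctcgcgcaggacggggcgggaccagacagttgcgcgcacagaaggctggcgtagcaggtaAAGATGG
MRPL42 (chr12:93467414-93467543, plus strand): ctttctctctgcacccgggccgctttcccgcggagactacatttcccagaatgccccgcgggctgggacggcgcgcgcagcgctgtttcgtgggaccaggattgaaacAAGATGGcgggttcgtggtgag
MRPL45 (chr17:38297068-38297197, plus strand): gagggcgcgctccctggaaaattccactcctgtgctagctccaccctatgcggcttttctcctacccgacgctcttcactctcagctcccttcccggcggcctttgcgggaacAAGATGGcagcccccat
The first 4 genes are among the 6 members with the lowest median ratio to the control and the last 4 have the highest. MRPS34 shows 3 ETS cores on the opposite strand, MRPS6 shows no core, and each of the last 4 shows a YY1 core within the first 30 transcribed bases. MRPL49 has a second YY1 core upstream of the printed stretch.

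As a share of all reads, RNA of the mitochondrial ribosomal protein genes was lower in every G library than in the control. Together they held 1.37% of reads in the control (13658 TPM), against 1.01% in G5, 1.02% in G14, 1.04% in G3, 1.12% in G11, 1.29% in G12 and 1.31% in G13. G12 and G13 lay nearest to the control, and G3, G5 and G14 were the lowest. The differences of these sums in G12 and G13 depend on scaling to total reads. They are smaller than the upward shifts of log2 ratios under median-of-ratios scaling there (0.13 and 0.16). Single genes were compared where their mean over the 7 libraries was at least 5 TPM, which 74 members and 7877 genes passed, as log2 ratios of TPM + 0.5. A gene was called when it lay at least 2-fold from the control. In bulk RNA, fewer cells with a transcript and less of it per cell cannot be told apart.

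The members' median log2 ratio was -1.02 in G14 (-0.10 over all genes compared), -0.89 in G5 (0.14), -0.85 in G3 (0.12), -0.65 in G11 (-0.04), -0.35 in G12 (-0.16) and -0.35 in G13 (-0.21). Of the 74, 21 fell at least 2-fold in G3, where 5.14% of all genes did. In G5, 35 fell, against 10.1% of all genes. In G11, 19 fell, against 10.4%. In G14, 37 fell, which is 50% of the members against 18.9% of all genes. At any fold, 64 of 74 members lay below the control in G14, 60 in G11, 59 in G5, 57 in G3 and G12, and 56 in G13. Of all 7877 genes, 4317 did in G14, 4166 in G11, 3032 in G5, 2903 in G3, 4913 in G12 and 5061 in G13. Against the median of the other 6 libraries in place of the control, the members' median was 0.34 in G12 and 0.29 in G13. The counts of falls in G12 (4 members, 5.41%, against 8.79% of all genes) and G13 (7 members, 9.46%, against 14.6%) were below the background share. A rise of at least 2-fold was seen for no member in G3, G5, G11 or G12, where 1.89%, 0.533%, 0.724% and 0.546% of all genes rose. It was seen for 1 member in G13 (MRPS30, against 1.04% of all genes) and 1 in G14 (MRPL49, against 3.97%).

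**Figure D1:**
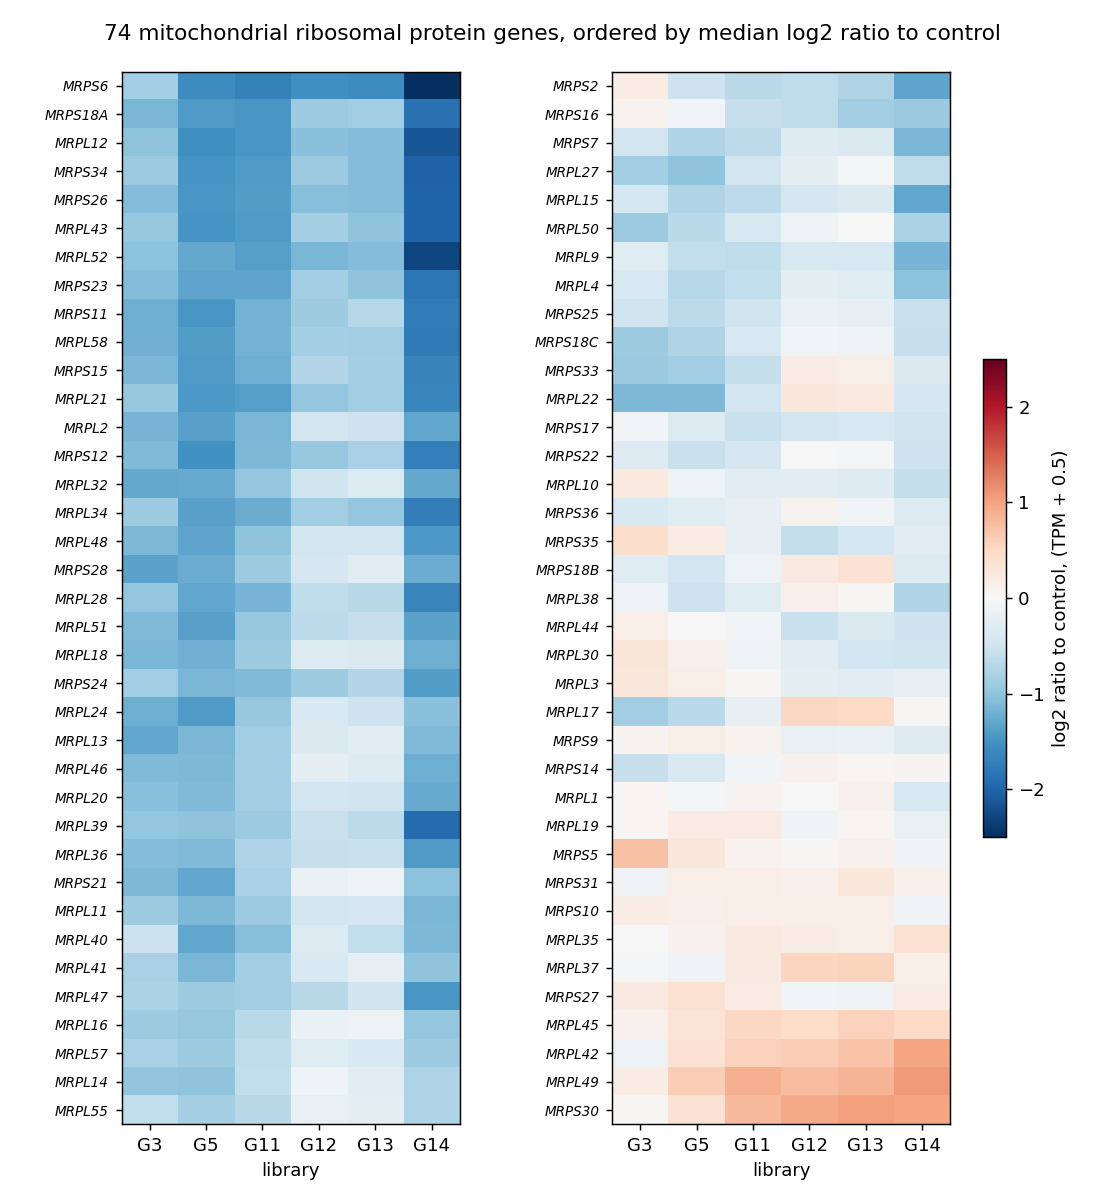
Log2 ratio to the control, from TPM + 0.5, of the 74 members with a mean of at least 5 TPM (rows, ordered by their median) in the 6 G libraries (columns), blue for lower and red for higher. The left panel holds the 37 genes with the lowest medians, which are blue in all 6 columns; MRPS30 and MRPL49 stand at the foot of the right panel.

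Across the 6 comparisons, which share the control library, 45 of 74 members were below the control in all 6 G libraries, where 20.5% of all genes were. Only 4 members (MRPS30, MRPL49, MRPL45 and MRPL35) were above it in all 6, where 21.1% of all genes were, and 25 went both ways. G14 was the lowest of the 7 libraries for 40 members, against 21.2% of all genes. G5 was the lowest for 13 and G3 for 12, against 5.26% and 10.9% of all genes. The level of RBFOX2 did not follow the same order: G14, with the lowest member median, held 106 TPM of RBFOX2, close to the 107 of the control, and G13, with one of the smallest shifts, held 55.9 TPM. G3, with the least RBFOX2 (42.1 TPM), had one of the larger shifts, a member median of -0.85. A link between RBFOX2 level and the members was not tested.

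Both subunits showed the shift. In the small subunit 14 of 27 genes were lower in all 6 G libraries and none was higher in all 6. In the large subunit 31 of 47 were lower in all 6 and 4 were higher. The median of the gene medians was -0.49 for the small subunit and -0.78 for the large one, whose genes also had shorter transcripts (median 1125 nt, against 1416 nt). With length and GC content removed the medians were -0.27 and -0.28. Genes listed with a bacterial counterpart and those counted as specific to mitochondria had the same median to 2 decimals, -0.65.

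Within the small subunit, MRPS6, a counterpart of bacterial S6, showed the largest median shift of all members, -1.58. Its level was 93 TPM in the control, 15.8 in G14, 28.6 in G11, 30.8 in G13, 31.0 in G5, 31.9 in G12 and 51.5 in G3. It fell past 2-fold in all G libraries but G3, and G14 held 16.9% of the control level (interval 15 to 19.1). MRPS6 was the member furthest below the control in G5, G11, G12, G13 and G14. It shares exons with SLC5A3 on the same strand, but SLC5A3 averaged only 0.809 TPM.

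MRPS34, a mitochondria-specific protein of the small subunit, fell at least 2-fold in 4 libraries. It had 578 TPM in the control, 142 in G14, 207 in G5, 218 in G11, 273 in G13, 308 in G12 and 310 in G3. In G14 the gene held 24.6% of the control level (interval 23.6 to 25.7), and the control stood clear of all 6 G libraries. MRPS26, also mitochondria-specific, went from 227 TPM to 56.1 in G14, 82.2 in G5, 85.5 in G11, 107 in G3, 107 in G13 and 108 in G12. MRPS26 and MRPL52 were the 2 compared members that fell at least 2-fold in all 6 libraries. MRPS11, MRPS12, MRPS15 and MRPS23 fell at least 2-fold in 4 or 5 libraries, with median log2 ratios of -1.20, -1.12, -1.18 and -1.20. MRPS11, MRPS12 and MRPS15 have bacterial counterparts; the counterpart of MRPS12 lies at the decoding centre.

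Other small-subunit genes stayed nearer to the control. MRPS9 had 432 TPM in the control and 344 (G14) to 475 (G5) in the other libraries, a median log2 ratio of -0.04. MRPS27, a pentatricopeptide repeat protein, had 219 TPM in the control and 207 (G13) to 283 (G5) elsewhere, with a median of 0.20. MRPS7, whose bacterial counterpart binds the RNA of the small-subunit head, lay between: 559 TPM in the control, 254 in G14, 331 in G5, 357 in G11, 406 in G3, 433 in G13 and 448 in G12, 2-fold lower in G14 only. MRPS5 and MRPS28 were the extremes of G3. MRPS5 had 156 TPM in the control and 260 in G3, a ratio of 167% (interval 159 to 175) that misses the 2-fold call, and 147 to 190 TPM in the other 5 libraries. MRPS28 fell from 70.3 TPM to 27.4 in G3, 29.4 in G5 and 29.5 in G14, but had 37.5 TPM in G11, 52.3 in G12 and 58.2 in G13.

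In the large subunit, MRPS18A fell from 163 TPM in the control to 44.3 in G14, 59.2 in G11, 60.4 in G5 and 73.5 in G3, and stood at 86.9 in G12 and 88.7 in G13. MRPL12, the counterpart of the bacterial stalk protein L7/L12, which is also known to bind the mitochondrial RNA polymerase, had 128 TPM in the control, 28.7 in G14, 43.9 in G5, 46.3 in G11, 60.6 in G13, 62.3 in G12 and 64.0 in G3. MRPL43 had 69.4 TPM in the control, 16.9 in G14, 24.6 in G5, 25.6 in G11, 34.3 in G13, 35.6 in G3 and 38.6 in G12. The lowest libraries were the same in the 3 genes, with G14 lowest, then G5 and G11 in either order. The order of G3, G12 and G13 differed between these genes. Their median log2 ratios were -1.28, -1.27 and -1.21. MRPL12 shares exons on its strand with a gene averaging 1.60 TPM, and MRPL43 overlaps the mitochondrial helicase gene TWNK (mean 21.5 TPM) on the other strand.

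MRPL2 (the counterpart of a protein near the peptidyl transferase centre), MRPL48, MRPL52 and MRPL58 (a peptidyl-tRNA hydrolase built into the ribosome, also called ICT1) fell at least 2-fold in 4 to 6 libraries. Their median log2 ratios were -1.15, -1.07, -1.21 and -1.19. MRPL52, at 32.0 TPM in the control and 6.11 in G14, was down to 19.1% there (interval 15.6 to 23.2). The abundant MRPL50 gave 500.0 TPM in the control, 267 in G3, 290 in G14, 313 in G5, 378 in G11, 472 in G12 and 500.4 in G13, and passed the 2-fold call in no library. MRPL3, the counterpart of bacterial L3, had 495 TPM in the control and 412 (G13) to 599 (G3) elsewhere, a median of -0.09.

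A small group of large-subunit genes was above the control in most libraries. MRPS30 had 247 TPM in the control, 502 in G13, 486 in G14, 475 in G12, 432 in G11, 319 in G5 and 253 in G3. Its ratio was 103% in G3 (interval 98.5 to 107), which does not differ from the control beyond counting error, and 204% in G13 (196 to 211). MRPL49 had 373 TPM in the control, 787 in G14, 696 in G11, 677 in G13, 641 in G12, 572 in G5 and 424 in G3. In G14 it was at 211% of the control (205 to 217). For both genes G3 was nearest to the control and the other 5 libraries stood above G3.

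MRPL42 was likewise lowest in G3 among the G libraries, with 761 TPM in the control, 1507 in G14, 1247 in G13, 1162 in G12, 1136 in G11, 978 in G5 and 691 in G3. The ratio in G14, 198% (interval 194 to 202), just misses the call. MRPL45, which lies near the exit of the peptide tunnel, had 333 TPM in the control and 357 (G3) to 498 (G13) elsewhere, with a median of 0.48. MRPL37, the member with the most reads, had 994 TPM in the control, 1454 in G13, 1438 in G12, 1156 in G11, 1095 in G14, 969 in G3 and 938 in G5. Its highest libraries, G12 and G13, are those in which the members as a whole were nearest to the control. MRPL49 overlaps FAU (12.4 TPM) and SYVN1 (23.7 TPM) on the other strand.

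**Figure D2:**
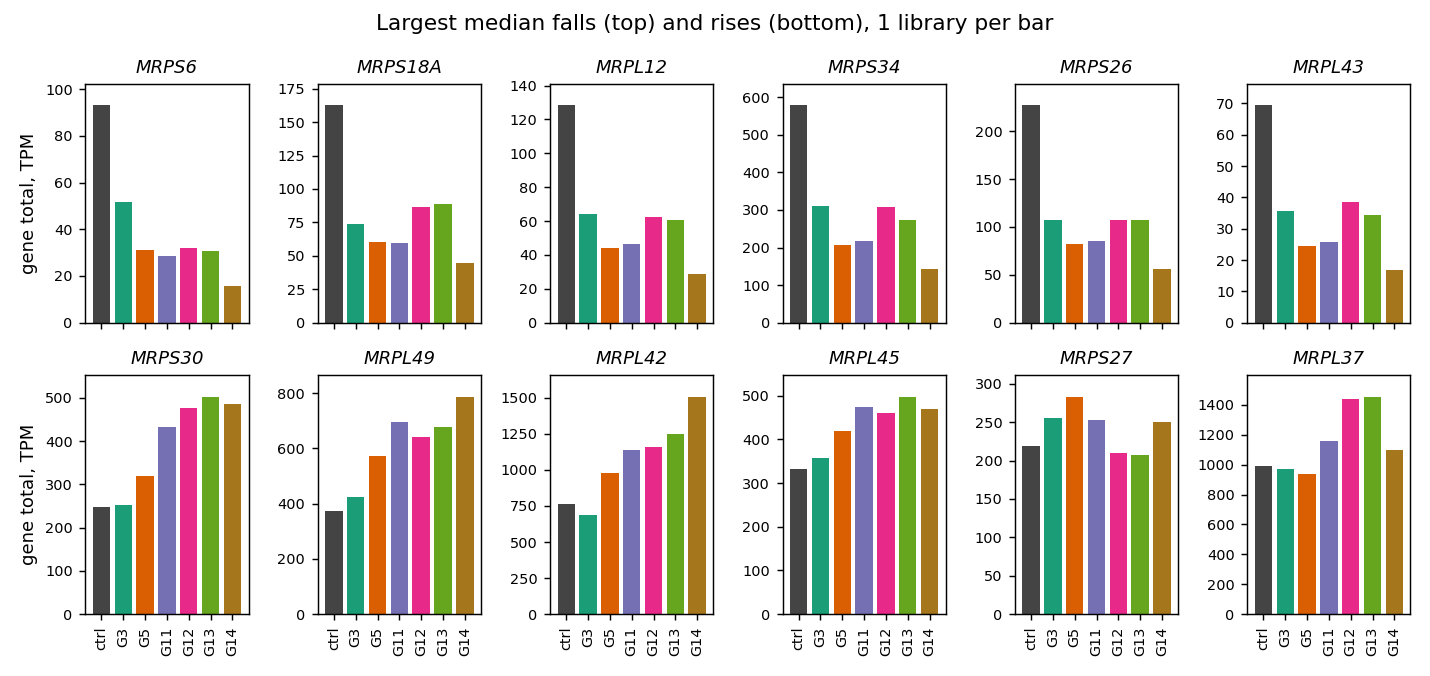
Gene totals in TPM (vertical axes from 0, scaled per gene) in the control and 6 G libraries, 1 library per bar and therefore without error bars, for the 6 members with the largest median fall (top) and the 6 with the largest median rise (bottom). In the top row the control is the highest bar and G14 the lowest in all 6 genes; in the bottom row MRPS30 and MRPL49 reach 502 TPM in G13 and 787 TPM in G14.

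Some members split the G libraries. MRPL17 had 44.9 TPM in the control, 24.2 in G3 and 27.9 in G5, but 64.1 in G12 and 63.7 in G13. MRPL22 had 142 TPM in the control, fell to 64.5 in G3 and 65.1 in G5, and stood at 169 in both G12 and G13. These 2 genes, named after their values were seen, were thus on opposite sides of the control in G3 and G5 against G12 and G13. The 3 members below 5 TPM were MRPL33, with 6.55 TPM in the control and 2.63 (G3) to 4.30 (G13) elsewhere, MRPL53, with 2.92 and 0.953 (G14) to 2.35 (G3), and MRPL54, with 3.33 and 0.573 (G14) to 1.25 (G11). All 3 were below the control in all 6 G libraries.

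Transcript length moved with these results. Lengths and GC content were means, weighted by mean TPM, over a gene's isoforms with a reference ID found in GENCODE 29. Transcripts were cut to the ends listed in the table, and isoforms without such an ID were left out. Reference IDs held only 24.7% of the reads of MRPL55 and 32.8% of those of MRPL28. Of the 74 members, 49 lay in the shortest of 5 bins with equal numbers of genes (207 to 1538 nt). In that bin the median over all genes was -1.04 in G14, -0.88 in G5, -0.75 in G11, -0.59 in G3, -0.43 in G13 and -0.39 in G12. The members in the bin had medians of -1.24 in G14, -1.14 in G5, -0.86 in G11, -0.92 in G3, -0.41 in G13 and -0.42 in G12. They were below the bin as a whole in 5 libraries, by 0.03 in G12 to 0.34 in G3, and above it by 0.02 in G13. Across the 74 members, which share the same 7 libraries, the median log2 ratio had a Spearman correlation of 0.63 with length and -0.46 with GC content. Over 7736 genes the correlation was 0.33 with length and -0.47 with GC content.

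**Figure D3:**
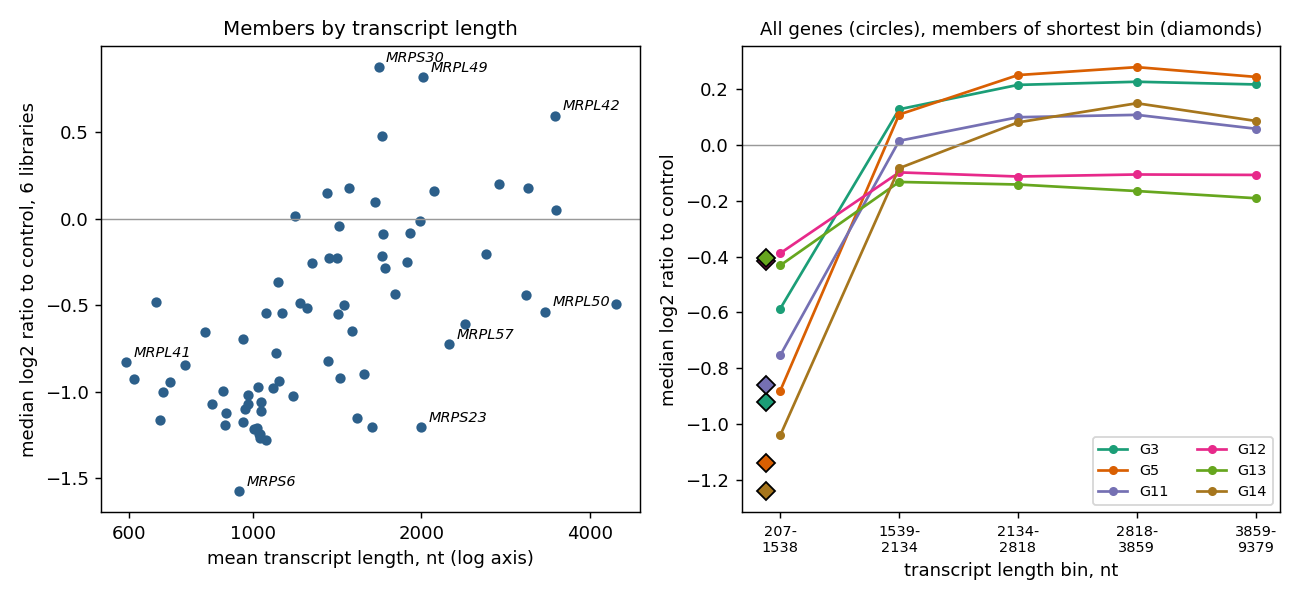
Left: median log2 ratio to the control over the 6 G libraries against mean transcript length in nt (log axis), 1 point per member (74). Right: median log2 ratio of all genes in each of 5 length bins (circles, 1 line per G library) and of the 49 members in the shortest bin (diamonds, shifted left for sight). Short transcripts are lower in all 6 libraries, and the diamonds lie below the circles of their bin in 5 of them, by up to 0.34 in G3.

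A smooth function of length (log2) and GC content, fitted over all genes per library, accounted for 32.1% (G12) to 50.7% (G5) of the variance of the log2 ratios. With it removed, the members' medians were -0.43 in G14, -0.32 in G5, -0.26 in G3, -0.26 in G11, -0.16 in G13 and -0.13 in G12. The members at least 2-fold lower were then 10 in G14, 5 in G5, 5 in G3, 3 in G11, 2 in G13 and 1 in G12, against 6.35%, 1.96%, 1.06%, 2.97%, 4.61% and 2.31% of all genes. In this setting 55 members were below the control in G14, 53 in G5, 52 in G11, 51 in G13, 48 in G3 and 46 in G12. The matching shares over all genes are not given here. Of the 74, 32 were below the control in all 6 libraries, where 16.2% of all genes were. The number above it in all 6 became 11, against 21.3% of all genes. Whether length or composition caused the shift was not tested.

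The ends of the order differed in how they depended on length and GC. MRPS6 stayed at -1.21 with length and GC removed, MRPS23 at -1.26 and MRPS11 at -1.08, while MRPS34 came to -0.37, MRPL12 to -0.45 and MRPS12 to -0.34. MRPS30 kept its median of 0.88, MRPL49 had 0.96 and MRPL37 moved from 0.18 to 0.58. MRPL41, with a 592-nt transcript of 66.6% GC and named after its values were seen, went from -0.83 to 0.83. Among the other members that changed sign, MRPL27, MRPL35, MRPL55 and MRPS9 came to medians of 0.01, -0.01, 0.41 and 0.02.

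Isoforms of 1 gene allow the same look within a gene. Among 13 members with 2 isoforms of at least 5% each that differ in length by at least 1.2-fold, the median over libraries of the difference in log2 ratio, longer minus shorter, was above 0 in 7. The longer isoform was above the shorter one in all 6 libraries in 4 (MRPL9, MRPL27, MRPL35 and MRPL42). In MRPS14 and MRPS18C the shorter isoform was above the longer one in all 6. The median of these differences over the 13 was 0.03. The difference was 1.35 in MRPL27, 0.82 in MRPL35 and -0.75 in MRPS18C.

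Isoform usage of the members moved little. A main isoform share was called when it moved by at least 10 percentage points and its 95% interval did not overlap that of the control. Among the 73 members with at least 2 isoforms, 1 was called in G12, 2 in G11, 2 in G13, 3 in G3, 3 in G14 and 4 in G5. Of all 7822 such genes, 8.34% were called in G12, 7.86% in G11, 10.3% in G13, 7.95% in G3, 11.4% in G14 and 8.53% in G5. The median usage distance, a scale from 0 (equal isoform shares) to 1 (no isoform in common), was 0.017 (G11) to 0.028 (G14) for the members and 0.062 to 0.077 for all genes. The calls came from MRPL27, MRPL30, MRPL35, MRPS11 and MRPS12. Sampling noise adds to the distance of weakly read genes, and its part in the difference between members and all genes was not tested. Reference transcript IDs held 92.7% to 95.1% of member reads in the 7 libraries.

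MRPL27, a counterpart of bacterial L27 at the peptidyl transferase centre, shifted from a shorter towards a longer isoform. The 716-nt form (ENST00000225969.9) held 82.2% of its reads in the control, 67.5% in G5, 68.1% in G14, 70.6% in G11, 70.8% in G3, 77.5% in G13 and 77.9% in G12. The 2432-nt form (ENST00000442592.3) held 10.0% in the control and 25.1%, 25.7%, 21.8%, 23.2%, 15.8% and 15.5% in the same order. All 6 G libraries shifted the same way, and G12 and G13 shifted least.

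MRPL35 moved in the same direction. Its 3727-nt form (ENST00000337109.9) held 66.6% in the control, 80.9% in G14, 80.8% in G5, 80.4% in G11, 80.2% in G3, 73.8% in G13 and 70.6% in G12. The 973-nt form (ENST00000254644.12) held 21.3% in the control and 13% (G5) to 18.8% (G12) elsewhere. MRPL42 did not: its 4618-nt form held 66% in the control and 66.8% to 68.8% elsewhere, although its total reached 1507 TPM in G14.

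MRPL30 split the libraries. Its 2605-nt form (ENST00000338148.8) held 52.3% in the control, 40.9% in G13 (37.2 to 44.7), 49.8% in G12, 53.8% in G11, 57.1% in G14, 63.1% in G5 and 77.9% in G3 (interval 75 to 80.5). G3 and G13 thus lay on opposite sides of the control, each beyond counting error. The second isoform of MRPS16, of 866 nt (ENST00000372940.3), held 14.6% in the control, 17.7% in G13 and 15.2% in G12. It held 9.4% in G11, 8.6% in G14, 5.5% in G5 and 5.4% in G3, and the intervals of G13 and the control overlapped. The main 2633-nt form of MRPS16 (ENST00000372945.8) did not split the libraries. It held 62.5% in the control and 65.8% (G13) to 70.9% (G3) in the G libraries. The 821-nt form of MRPS12 (ENST00000308018.9) held 49.2% in the control, 65.6% in G14, 60.6% in G12, 60.5% in G13, 53.0% in G11, 50.5% in G5 and 44.6% in G3. MRPS11 was called in G5 only, at 68.5% against 58.0%. Of the other members with a large usage distance, MRPL52 divided its reads between forms of 1111 nt (36.9% in the control, 26.6% in G14) and 1104 nt (28.9% and 32.8%), and no isoform of MRPL55 held more than 17.7% in any library.

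**Figure D4:**
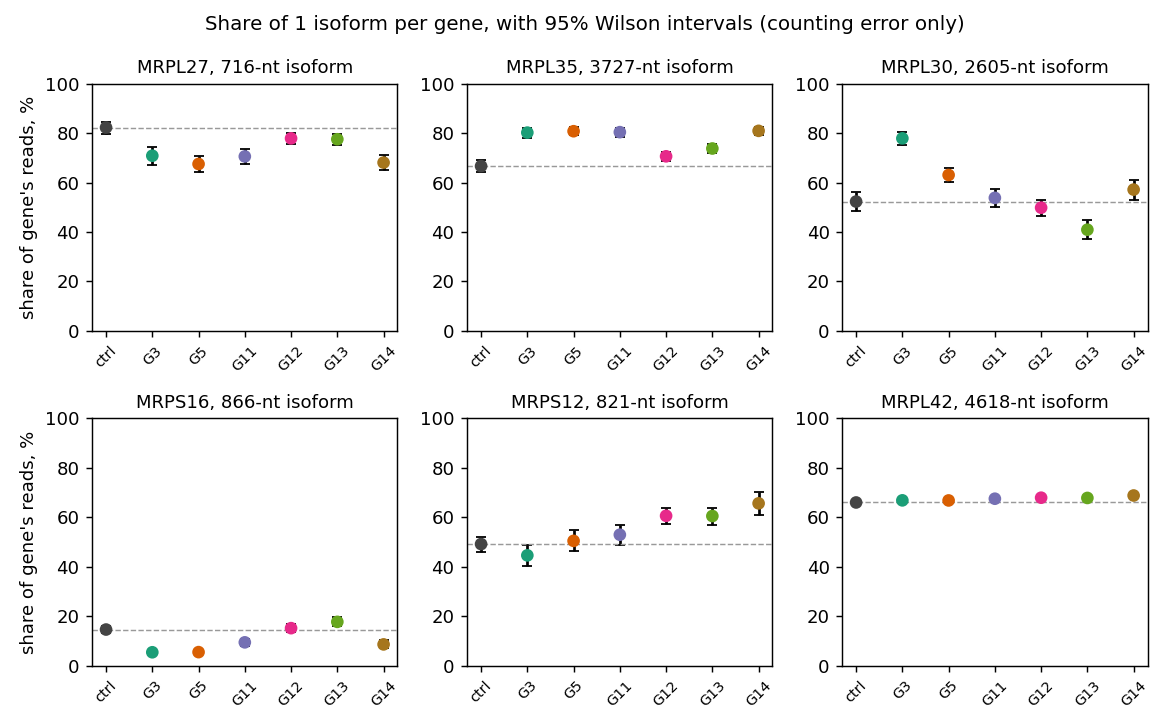
Share of a gene's reads held by 1 isoform, in percent (vertical axis 0 to 100), in the control and 6 G libraries for 6 members; bars are 95% Wilson intervals for counting error and the dashed line is the control. The short form of MRPL27 is lower and the long form of MRPL35 higher in all 6 G libraries, MRPL30 runs from 77.9% in G3 to 40.9% in G13, and MRPL42 stays between 66% and 68.8%.

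Other genes of the mitochondrial translation system were compared through lists. The 5 mitoribosomal proteins with other symbols had a median of gene medians of -0.65, the same as the members. With length and GC removed it was -0.20 for the 5 and -0.28 for the members. By library, the median of the 5 then ran from -0.31 in G14 to 0.13 in G13. That of the members ran from -0.43 in G14 to -0.13 in G12. Before this removal, 3 of the 5 were lower in all 6 G libraries. These were AURKAIP1 (157 TPM in the control, 57.5 in G5 and 62.9 in G14), CHCHD1 (22.7, 8.64 and 7.16) and GADD45GIP1 (148, 72.2 and 64.2). DAP3, a GTP-binding protein of the small subunit, had a median of -0.13 and PTCD3 one of 0.28.

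Assembly factors of the mitoribosome had a median of -0.01 over 23 compared genes, of which 6 were lower and 2 higher in all 6 libraries. The sign of this median turned when libraries were scaled by their median ratio (0.05) and when length and GC were removed (0.20). Mitochondrial translation factors had a median of -0.12, with 5 of 16 lower and 1 higher in all 6. SLIRP, an RNA-binding partner of LRPPRC, was the furthest below: 26.2 TPM in the control and 5.35 (G14) to 9.65 (G13) elsewhere. The list of mitochondrial aminoacyl-tRNA synthetases, which charge the tRNAs that the mitoribosome reads, had a median of 0.23. It also holds QRSL1, which is not a synthetase, and GARS1 and KARS1, which also encode the cytosolic enzymes. None of its 18 compared genes was lower in all 6 and 9 were higher, QRSL1 and KARS1 among them. Transcripts of this list were longer (median 2545 nt, against 1261 nt for the members). VARS2 stood apart, with 20.2 TPM in the control, 30.1 in G3, 1.54 in G13 and 3.91 in G14.

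**Figure D5:**
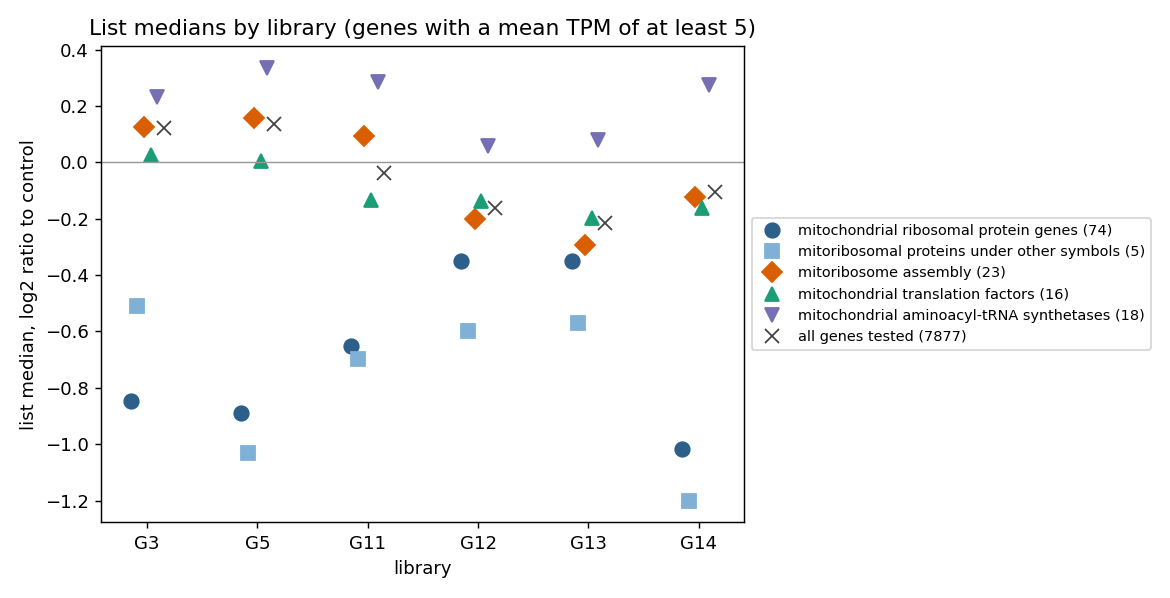
Median log2 ratio to the control, from TPM + 0.5, in each G library for the members, 4 other lists of mitochondrial translation genes and all genes compared, with the number of genes in brackets. The members and the 5 mitoribosomal proteins with other symbols lie lowest in all 6 libraries, and the aminoacyl-tRNA synthetases lie highest.

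Promoter windows of 300 bases (250 before the start and 50 after) were available for 69 members, as 85 windows. An ETS core stood in 38.8% of them, against 10.3% of all promoters and 19.9% of those of genes compared here. A YY1 core stood in 31.8% (5.84% and 8.30%) and an NRF1 core (GCGCATG on either strand) in 8.24% (4.43% and 7.60%). An ETS core can run into a YY1 core, since the former ends and the latter begins with AAG, and a match is a description, not a binding site. Among the 6 genes with the largest median falls, 4 had an ETS core and 1 a YY1 core, whereas among the 6 with the largest median rises none had an ETS core and 5 a YY1 core. All 66 compared members in the promoter table showed less contrast. The 27 with an ETS core had a median of -0.92 and the 39 without one -0.51, and those with it had shorter transcripts (median 1054 nt, against 1483 nt). With length and GC removed the medians were -0.36 and -0.14. Over all 6522 genes compared that have a promoter window the medians were -0.07 with and without an ETS core. For the YY1 core the members' medians were -0.58 with (24 genes) and -0.67 without (42).

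In position, the members were spread over 21 chromosomes. MRPL46 and MRPS11 lie head to head on chromosome 15, with starts 34 bases apart, and had median log2 ratios of -0.97 and -1.20. The other members most like a copy of another locus are those with pseudogenes: 36 members have pseudogene symbols, 81 in all, of which the table holds none, so how reads shared with a pseudogene were assigned is unknown. Of the 77 members, some of them with pseudogenes too, 13 share exons with another protein-coding gene on their own strand, MRPS17 with the abundant NIPSNAP2 (429 TPM) and MRPL33 with BABAM2 (81.6 TPM), and their values are uncertain to that degree.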

How the data were processed

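Per the labels' protocols, cDNA molecules were joined into 8-fold arrays (MAS-Seq), sequenced on the Revio system and split into reads that each stand for 1 molecule. Per the submitters' processing notes, minimap2 2.17 and the build GRCh38 (hg38) were used; the program that named isoforms, its filters and its annotation are not given in the sources used here. Per the file headers, the authors deposited full-length read counts and TPM for each isoform. The deposited TPM equalled the count scaled to the library total to within 0.005. The table lists isoforms with reads in the control and misses those read in G libraries alone: it held 98.1% to 98.6% of the reads of G libraries and 100% of those of the control. Spike-in RNA, added per the labels, was not used here.

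Gene totals are sums over isoforms with the same Ensembl ID stem. Genes with a mean of at least 5 TPM were compared as log2(TPM + 0.5), which understates changes of low genes, and called at 2-fold. Main isoform shares were called at 10 percentage points where the 95% intervals did not overlap. Ratios have exact Clopper-Pearson and shares Wilson intervals (95%). There was no replicate and so no test. A count of 3 reads, the floor, is worth 0.112 to 0.179 TPM. The steps were tested on simulated counts. Python 3.11.15, pandas 2.3.3, numpy 2.4.6 and scipy 1.17.1 were used.

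The members, lists and rules were chosen with earlier results of these data known. Named are the 8 members with the highest and the 3 with the lowest mean, the 6 with the largest median rise and fall, the 6 with the largest median usage distance, all at least 2-fold from the control in 4 or more libraries, and the extremes of each library. MRPL23 was not analysed here. Lengths and GC content came from GENCODE 29, for isoforms with a reference ID only, and lengths were cut to the listed isoform ends after the data were seen. Alternatives tried were the pseudocount, the filter, median-of-ratios scaling, reference isoforms only, other thresholds, another reference library, removal of length and GC, and leaving out each G library.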

Additional observations from a re-analysis of the deposited data

How the results depend on the processing

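With length and GC content removed, the members' medians were -0.26, -0.32, -0.26, -0.13, -0.16 and -0.43 in G3, G5, G11, G12, G13 and G14, and 5, 5, 3, 1, 2 and 10 members were at least 2-fold lower. In G14 the members at least 2-fold higher became 2, against 4.40% of all genes. Those higher in all 6 libraries became 11, against 21.3%. The medians of the large subunit and of the genes listed with a bacterial counterpart were both -0.28 and that of the assembly factors was 0.20. Lengths not cut to the listed ends, a setting chosen after seeing the data, gave medians of -0.28, -0.35, -0.30, -0.11, -0.16 and -0.48, counts lower of 5, 7, 3, 1, 1 and 10, counts higher of 1 in G11, 3 in G13 and 4 in G14, and 7 members higher in all 6. Shares over all genes are not given for uncut lengths. Among the members named by rule, MRPL27 (0.0094), MRPL35 (-0.0050), MRPL55 (0.41) and MRPS9 (0.024) changed sign with length and GC removed. Members outside the rule did so too.

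Median-of-ratios scaling shifted all log2 ratios by 0.16 in G13, 0.13 in G12 and 0.11 in G14. The members' median was then -0.22 in G12 and -0.19 in G13. Members at least 2-fold lower were 2 in G12 and 1 in G13, against 6.37% and 11.3% of all genes. Members at least 2-fold higher were 3 in G14, 2 in G13 and 1 in G12, against 6.12%, 2.07% and 1.1% of all genes. The assembly factors' median became 0.053 and that of MRPS9 0.024. Against the median of the other 6 libraries in place of the control, the members' medians were -0.51 in G14, -0.40 in G5, -0.15 in G3, -0.13 in G11, 0.29 in G13 and 0.34 in G12. Shares over all genes are not given for that reference. Members at least 2-fold lower under it were 0 in G3, G5, G11, G12 and G13 and 5 in G14. Members higher were 0 in G13 and G14. The direction in G12 and G13 thus depends on the single control library.

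A 1.5-fold call gave 43 members lower in G3, 43 in G11, 21 in G12 and 21 in G13, and 1, 1, 2, 3, 3 and 3 higher in the 6 libraries in the order above. Shares over all genes at 1.5-fold, at 20 percentage points and for isoforms of at least 1 TPM are not given here. With reference isoforms only, 2 members were at least 2-fold higher in G14, against 5.96% of all genes. The usage distance was then 0.015 in G14, 0.010 in G13, 0.0099 in G11, 0.0091 in G3 and 0.0073 in G12. Isoforms of at least 1 TPM gave a distance of 0.013 in G13, 0.012 in G5, 0.012 in G12 and 0.011 in G11, and 2 main isoform calls in G5. At 20 percentage points 1 main isoform was called in G3 and 0 in G5, G11, G12, G13 and G14. Another pseudocount, a filter of 10 TPM and no filter kept every count within 1.5 times and every median within its interval. Leaving out each G library in turn, chosen after seeing the data, left 45 to 48 members lower and 4 to 6 higher in all the others.

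No paired analysis was possible because the groups share only replicate number 1 and each holds 1 library. With 1 library per label, a difference between cultures and one between knockdowns cannot be told apart.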

Other observations

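Most members were read as 1 dominant transcript. In 39 of 73 members the main isoform held at least 90% of the gene's reads on average, and the median over members was 91.1%. MRPL57, MRPL44, MRPL50 and MRPL19 had main shares of at least 99.5%. In 4 members (MRPL24, MRPL28, MRPL52 and MRPL55) no isoform reached 50% on average over the libraries. MRPL55 was spread over 108 isoforms and only 24.7% of its reads carried a reference transcript ID, against 32.8% in MRPL28 and 98.1% in MRPL42, which has 148 isoforms. Reads of transcripts annotated for nonsense-mediated decay, a pathway that removes messages with an early stop codon, made up 0.160% (G13) to 0.187% (G3) of typed member reads. In all genes they made up 0.599% (G3) to 0.764% (G5). The member in which such a transcript held at least 5% of reads was MRPS14, a counterpart of bacterial S14. Its 910-nt form (ENST00000367677.3) held 7.9% of reads in the control (111 reads) and 9.3% (G13) to 11.9% (G12) in the G libraries. Isoforms without a reference ID carry no such type.

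The steadiest member was MRPS10, a counterpart of bacterial S10, whose lowest level (164 TPM, G14) and highest (202 TPM, G3) differed 1.23-fold. MRPS31 spanned 1.28-fold (64.3 TPM in G3 to 82.4 in G13) and MRPL35 1.31-fold. At the other end MRPS6 spanned 5.90-fold and MRPL52 5.23-fold, both from the control down to G14. These spans describe 7 single libraries and were not tested. Members named here that are outside the naming rule were chosen after their values were seen.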
